A study of Homo sapiens with 10 samples.

Results

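Chimpanzee FOXP2 was set against empty vector in the human neuroblastoma line SH-SY5Y. Of the 10 RNA-seq libraries of the series, 4 entered this comparison, and they were chosen by their labelled transfection state: 2 ptrFOXP2 libraries, from cells carrying the common chimpanzee FOXP2 cDNA in pcDNA3, and 2 pcDNA3 libraries, from cells carrying the plasmid without insert. The 6 remaining libraries, 2 each from cells with the human (hsaFOXP2), Rhesus monkey (mmuFOXP2) and white-tufted ear marmoset (cjaFOXP2) cDNA, served to estimate the spread and as a second comparison. All cells were nucleofected with linearized plasmid and kept under geneticin, so the pcDNA3 cells carry the plasmid and the selection too. Replicates A and B were taken as the study's separate rounds of transfection of 1 cell line, and p-values therefore measure the spread between such transfectants. Values are BPKM, which count mapped bases relative to exon length and to the size of the library, averaged over the transcripts of a gene.

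FOXP2 is a forkhead transcription factor that binds DNA through its forkhead domain and is mostly described as a repressor. Its loss of function in humans impairs speech and language. The chimpanzee protein differs from the human one by a pair of amino acid exchanges that arose on the human branch. The length of the longest poly-glutamine stretch differs too. SH-SY5Y cells derive from the sympathoadrenal lineage. In that lineage, factors such as PHOX2A, HAND2 and GATA3 maintain noradrenergic identity and switch on the genes for catecholamine synthesis and for the cargo of secretory granules, whereas other neuroblastoma cells have a mesenchymal character.

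The labelled cell type was checked against its markers in all 10 libraries. HAND2 ranged from 84.8 to 152 BPKM, GATA3 from 30.1 to 45.1 BPKM and PHOX2A from 11.4 to 101 BPKM, so these factors were present. DBH, the enzyme that makes noradrenaline, was at 0.396 to 4.15 BPKM only, and the mesenchymal genes CD44 and VIM were at 125 to 218 and 1275 to 2493 BPKM. Read counts are not in the table, and the relative depth estimated from the smallest steps between values was 1.26 and 1.02 in ptrFOXP2 replicates A and B, against 1.05 in pcDNA3 replicate B and 1 in pcDNA3 replicate A. Library ptrFOXP2 A lay closer to pcDNA3 A (root mean square difference of 0.253 on the log2 scale over 13412 genes averaging 1 BPKM or more) than to ptrFOXP2 B (0.371). The 2 pcDNA3 libraries differed by 0.346.

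FOXP2 RNA was present in the transfected cells and nearly absent from the controls. It amounted to 2.09 and 21.8 BPKM in ptrFOXP2 A and B, against 0.0045 BPKM in pcDNA3 A and a listed 0 in pcDNA3 B. The groups did not overlap, and ptrFOXP2 B held 10.4 times the level of ptrFOXP2 A. The means were 11.9 ± 13.9 BPKM in ptrFOXP2 and 0.00225 ± 0.00318 BPKM in pcDNA3 (SD, n = 2 each). With 2 libraries against 2, the exact permutation test (two-sided) could not fall below its value here, p = 0.33. All 14 FOXP2 transcripts of the table were above 0 in both ptrFOXP2 libraries, at 1.20 to 4.03 BPKM in replicate A and at 10.4 to 46.7 BPKM in replicate B. None exceeded 0.0179 BPKM in pcDNA3. The reads of the cDNA were aligned to the human genome, so transcripts of the transfected chimpanzee cDNA and of the endogenous gene were not separated. By RT-PCR the study found no endogenous FOXP2 transcript in parental cells. Its Western blots showed no FOXP2 protein in parental or pcDNA3 cells. The study assigned the FOXP2 of the transfected cells to exogenous expression. From densitometry over its replicates I to III, it judged FOXP2 protein to be about equal between hsaFOXP2 cells and those with the non-human cDNAs. That is a protein measure, and it was not set against the RNA of single libraries here.

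**Figure D1:**
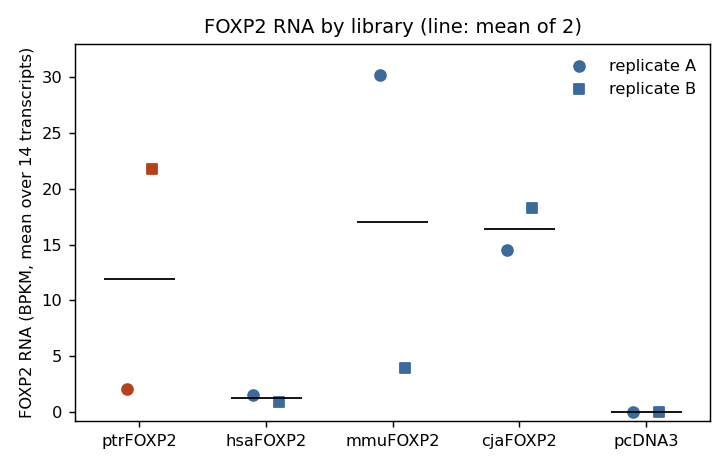
FOXP2 RNA in BPKM (vertical axis, mean over 14 transcripts) in each library of the 5 conditions, with circles for replicate A, squares for replicate B and a line at the mean of 2. The ptrFOXP2 libraries sit at 2.09 and 21.8 BPKM and the pcDNA3 libraries at or near 0.

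Differential expression between ptrFOXP2 and pcDNA3 was tested with limma on log2(BPKM + 0.1) for 22238 genes, with Benjamini-Hochberg adjusted p under 0.05 as threshold. Only 1 gene passed in each direction (0.0045% of the genes tested, each), and both were named after their values had been seen. Each was above 0 in 1 condition only and passed the filter on low values through that condition alone, so its call is a description and no support for a difference. MIR199B had 0.0918 and 0.113 BPKM, against a listed 0 in both pcDNA3 libraries. It was listed at 0 in the 6 other FOXP2 libraries as well. DQ591726, known to the table only by this sequence identifier, was at a listed 0 in both ptrFOXP2 libraries, against 0.133 and 0.133 BPKM in pcDNA3 and a listed 0 in the 6 other FOXP2 libraries. With the replicate letter as a block, that is with libraries paired by round of transfection, 0 genes passed limma in either direction. Without the threshold, 145 genes were higher (0.652%) and 606 lower (2.73%) in ptrFOXP2 at an unadjusted p under 0.05. The transfected gene FOXP2 did not pass the adjusted test either (log2 difference 6.08 ± 1.16 SE, limma adjusted p = 0.713). A gene that failed this test is therefore not shown to be unchanged.

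The MIR199B entry is a microRNA hairpin, and its sequence is given to show what the called feature covers. RefSeq places it at chr9:128244721-128244830 on the minus strand (GRCh38.p14), inside the protein-coding gene DNM1, which lies on the plus strand. The hairpin has the mature arm hsa-miR-199b-3p in capitals, and the mature arm is given once more with its seed (bases 2 to 8) in capitals. The libraries were made from polyadenylated RNA, so the values stand for reads over the hairpin and not for the mature microRNA. DNM1, a dynamin of membrane fission, was at 13.2 and 10.9 BPKM in ptrFOXP2, against 15.0 and 13.9 BPKM in pcDNA3. No source used here says whether reads were assigned by strand.
MIR199B hairpin: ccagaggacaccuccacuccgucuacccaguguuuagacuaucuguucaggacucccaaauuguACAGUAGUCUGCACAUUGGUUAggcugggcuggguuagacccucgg
hsa-miR-199b-3p: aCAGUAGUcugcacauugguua

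Many more genes separated the 4 libraries without passing the test. Both ptrFOXP2 libraries lay above both pcDNA3 libraries in 1874 genes (8.43%) and below both in 3888 genes (17.5%). This balance depended on the scaling: with median-ratio scaling, 2969 genes (13.4%) were non-overlapping higher and 3072 (13.8%) lower, and 47.7% of all differences were negative. The median log2 difference over all genes was -0.03, with a negative value in 58.2% and a positive value in 41.8% of the genes. Differences within a round correlated at r = 0.198 between the rounds (Spearman's rho = 0.11) across 22238 genes, which share their libraries and are not independent. Among the 13412 genes averaging 1 BPKM or more, 51.4% differed in the same direction in both rounds. In this set, 28 genes were at least 2-fold lower in both rounds and 7 at least 2-fold higher, on the log2(BPKM + 0.1) scale.

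**Figure D2:**
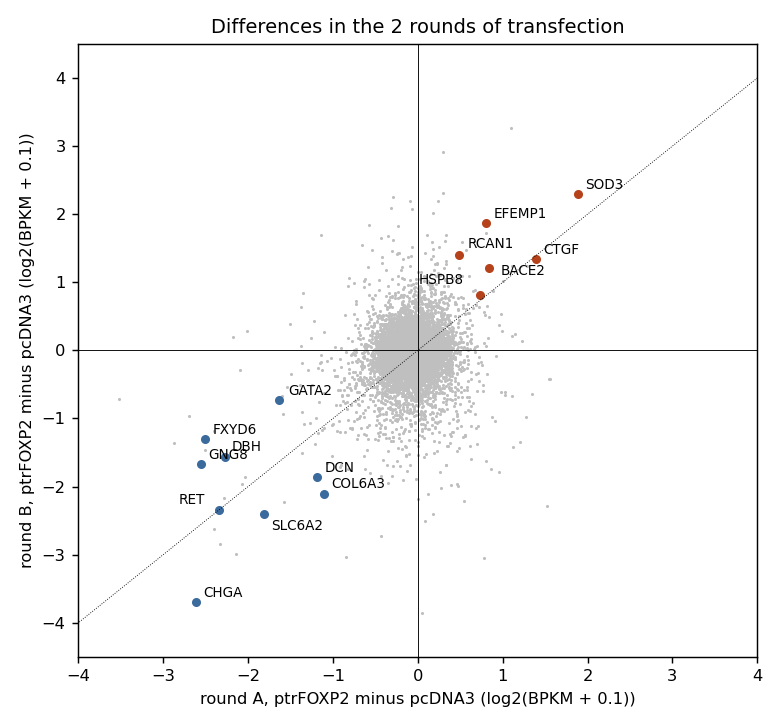
Log2 difference of ptrFOXP2 minus pcDNA3 in round A (horizontal axis) and round B (vertical axis) for 13412 genes averaging 1 BPKM or more (grey points), with a dotted line of equality and 15 genes labelled. The labelled neuronal genes such as CHGA and RET lie below 0 in both rounds, and SOD3 and CTGF above 0 in both.

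Noradrenergic transcription factor genes were lower in ptrFOXP2 almost throughout the list. Of 21 tested, 20 had a negative log2 difference, and in 19 both ptrFOXP2 libraries lay below both pcDNA3 libraries, against 17.5% of all genes. With median-ratio scaling these were 17 of 21, against 13.8% of all genes. Their median was -0.56 (-0.65 in round A and -0.46 in round B), against -0.03 over all genes tested. Without pcDNA3 A the median was -0.36, and with a pseudocount of 1 it was -0.27. None passed the adjusted test, and 7 had an unadjusted p under 0.05, all 7 lower, against 2.73% of all genes. In bulk RNA, fewer cells of a type and less RNA per cell cannot be told apart.

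GATA2, a zinc finger factor of the sympathetic lineage, had 3.63 and 3.54 BPKM in ptrFOXP2, against 11.4 and 5.95 BPKM in pcDNA3 (log2 difference -1.18 ± 0.45 SE, limma adjusted p = 1). PHOX2A, a homeodomain activator of DBH, had 18.6 and 11.4 BPKM in ptrFOXP2, against 35.0 and 36.7 BPKM in pcDNA3. In both genes the groups were apart, and the ptrFOXP2 libraries resembled each other more than the pcDNA3 libraries did in GATA2. HAND2, the most abundant factor of the list, had 87.1 and 96.3 BPKM in ptrFOXP2, against 114 and 105 BPKM in pcDNA3. ZNF536, TFAP2B, LMO1 and SIX3 had log2 differences of -1.29, -0.68, -0.97 and -0.56, each with non-overlapping libraries. ISL1, a LIM homeodomain factor, overlapped between the groups (12.9 and 19.9 BPKM in ptrFOXP2, 17.1 and 16.8 BPKM in pcDNA3), and TFAP2A was near 0 (0.0105 and 0.027 BPKM in ptrFOXP2, 0.00694 and 0.0198 BPKM in pcDNA3).

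**Figure D3:**
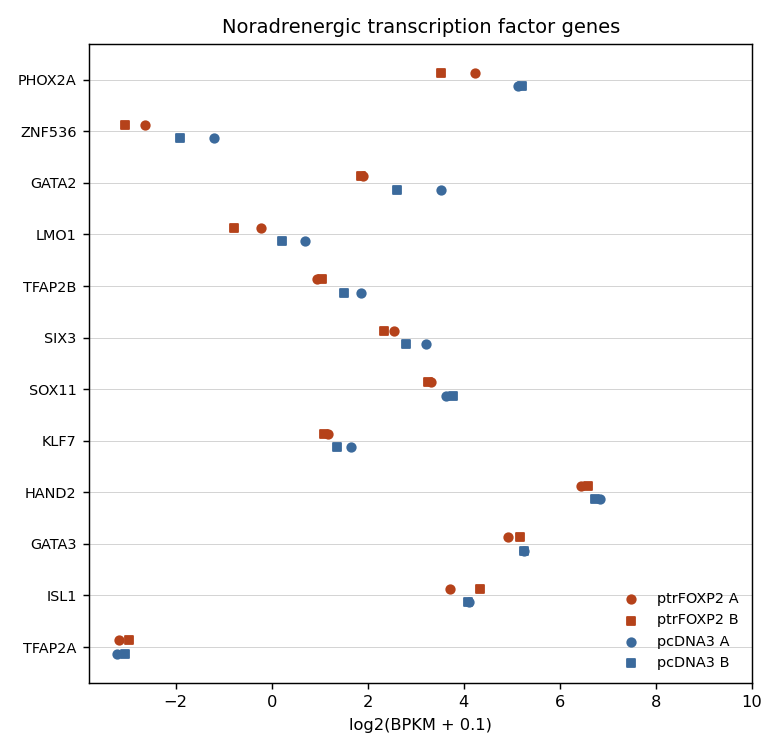
Log2(BPKM + 0.1) of 12 noradrenergic transcription factor genes, those named in the text (rows), in the 2 ptrFOXP2 libraries (red, upper marks of a row) and the 2 pcDNA3 libraries (blue, lower marks), with circles for replicate A and squares for replicate B. In 10 of 12 rows the red marks lie left of the blue ones, ISL1 and TFAP2A being the exceptions.

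Among genes of catecholamine synthesis, transport and breakdown, part of the members separated the groups. Of 13 genes tested, 10 were negative, against 58.2% of all genes, and 6 did not overlap, all 6 lower, against 17.5% of all genes. The list's median was -0.74 (-0.22 in round A and -0.48 in round B). Of its members, 0 passed the adjusted limma test, and 4 had an unadjusted p under 0.05, all lower, against 2.73% of all genes. The median was -0.26 without ptrFOXP2 B or without pcDNA3 A, and -0.03 over the 7 members averaging 1 BPKM or more. DBH had 0.778 and 0.542 BPKM in ptrFOXP2, against 4.15 and 1.79 BPKM in pcDNA3 (log2 difference -1.92 ± 0.52 SE, limma adjusted p = 0.947). DDC, the decarboxylase that makes dopamine, had 0.327 and 0.0466 BPKM in ptrFOXP2, against 1.57 and 0.643 BPKM in pcDNA3. SLC6A2, the noradrenaline transporter of the plasma membrane, had 0.718 and 0.14 BPKM in ptrFOXP2, against 2.77 and 1.17 BPKM in pcDNA3. Thus the higher ptrFOXP2 library stayed below the lower pcDNA3 library in each of these genes. GCH1, which starts the synthesis of the hydroxylase cofactor tetrahydrobiopterin, had a smaller difference of -0.74 ± 0.22 SE on the log2 scale. The vesicular transporter SLC18A2 (2.58 and 2.69 BPKM in ptrFOXP2, 2.17 and 2.62 BPKM in pcDNA3) overlapped between the groups.

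Among granins, peptide processing genes and neuropeptides, 14 of 17 were negative and 9 did not overlap, all 9 lower, against 17.5% of all genes, with a median of -0.47. Without ptrFOXP2 B the median was -0.27. That median was 0 in round A and -0.71 in round B. Among the 9 is PCSK2, which is at 0 in ptrFOXP2 and does not exceed 0.000324 BPKM in pcDNA3. CHGA, the granin that drives granule formation, had 1.56 and 0.369 BPKM in ptrFOXP2, against 10.1 and 6.00 BPKM in pcDNA3 (log2 difference -3.16 ± 0.69 SE, limma adjusted p = 0.792). SCG3, a granin that binds CHGA, had 0.413 and 0.138 BPKM in ptrFOXP2, against 1.80 and 0.96 BPKM in pcDNA3. The convertase inhibitor precursor PCSK1N had 7.47 and 4.48 BPKM in ptrFOXP2, against 9.02 and 9.26 BPKM in pcDNA3. The abundant granin genes behaved otherwise in round A. VGF had 1418 BPKM in ptrFOXP2 A and 704 in ptrFOXP2 B, against 1365 in pcDNA3 A and 1565 in pcDNA3 B, and SCG2 had 996 and 451 BPKM in ptrFOXP2, against 802 and 1073 BPKM in pcDNA3. In both genes only ptrFOXP2 B lay below the controls.

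Of 26 receptors and ligands of growth and survival factors, 20 were negative, 11 non-overlapping lower, against 17.5% of all genes, and 1 non-overlapping higher, against 8.43% (median -0.23). The median was -0.35 without pcDNA3 A and -0.13 without pcDNA3 B. RET, the receptor tyrosine kinase of the GDNF family, had 0.773 and 0.359 BPKM in ptrFOXP2, against 4.34 and 2.22 BPKM in pcDNA3 (log2 difference -2.34 ± 0.89 SE, limma adjusted p = 1). ALK, a receptor tyrosine kinase that is often mutated in neuroblastoma, had 0.132 and 0.133 BPKM in ptrFOXP2, against 1.04 and 0.472 BPKM in pcDNA3. In both genes the groups were apart, with the highest value in pcDNA3 A. The neurotrophin BDNF was the non-overlapping higher member, with 0.585 and 0.481 BPKM in ptrFOXP2, against 0.34 and 0.328 BPKM in pcDNA3.

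In voltage-gated channels, 25 of 37 were negative, against 58.2% of all genes, 15 non-overlapping lower, against 17.5%, and 3 non-overlapping higher, against 8.43%. The median was -0.14, and -0.21 without pcDNA3 A or -0.05 without pcDNA3 B. Of the 37, 0 passed the adjusted limma test, and 8 had an unadjusted p under 0.05, all lower, against 2.73% of all genes. CACNA2D2, an auxiliary calcium channel subunit, had 0.531 and 0.266 BPKM in ptrFOXP2, against 2.43 and 1.33 BPKM in pcDNA3. KCNH2, the potassium channel of the ERG type, had 5.93 and 5.53 BPKM in ptrFOXP2, against 10.4 and 8.12 BPKM in pcDNA3. Among them CACNA1B, the pore of the N-type calcium channel, had 0.0194 and 0.02 BPKM in ptrFOXP2, against 0.198 and 0.135 BPKM in pcDNA3.

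In ligand-gated and muscarinic receptors, 23 of 33 were negative, 16 non-overlapping lower, against 17.5% of all genes, and 3 non-overlapping higher, near the 8.43% of all genes (median -0.22, and -0.06 with a pseudocount of 1). CHRNB4, a nicotinic subunit of autonomic ganglia, had 0.183 and 0.162 BPKM in ptrFOXP2, against 0.846 and 0.547 BPKM in pcDNA3. GRIN1, the obligate NMDA receptor subunit, had 0.0422 and 0.0103 BPKM in ptrFOXP2, against 0.164 and 0.146 BPKM in pcDNA3. In the synaptic vesicle list, 22 of 31 were negative, 12 non-overlapping lower, against 17.5% of all genes, and 1 non-overlapping higher, against 8.43% (median -0.19). The median was -0.37 without ptrFOXP2 A, -0.06 without ptrFOXP2 B, -0.10 without pcDNA3 A and 0.015 over members averaging 1 BPKM or more. CPLX2, which clamps vesicle fusion, had 0.0956 and 0.0158 BPKM in ptrFOXP2, against 0.607 and 0.248 BPKM in pcDNA3, and SYN1, UNC13A and SV2C had log2 differences of -1.09, -1.24 and -0.83.

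Axon guidance genes were split. Of 48 tested, 38 were negative, 12 were non-overlapping lower (25%, against 17.5% of all genes) and 5 non-overlapping higher (10.4%, against 8.43%). The median was -0.16, and -0.26 without pcDNA3 A or -0.04 without pcDNA3 B. UNC5A, a netrin receptor, had 0.118 and 0.0543 BPKM in ptrFOXP2, against 0.945 and 0.6 BPKM in pcDNA3 (log2 difference -2.22 ± 0.46 SE, limma adjusted p = 0.792). EPHB3, an ephrin receptor, had 0.953 and 0.991 BPKM in ptrFOXP2, against 1.51 and 2.48 BPKM in pcDNA3, and ROBO2, a Slit receptor, had 0.576 and 0.476 BPKM in ptrFOXP2, against 0.81 and 0.912 BPKM in pcDNA3. Abundant members were found among the lower as well as among the higher genes. EPHA2 (48.7 and 39.9 BPKM in ptrFOXP2, 37.9 and 33.2 BPKM in pcDNA3) and NRP1 (83.5 and 86.8 BPKM in ptrFOXP2, 73.7 and 79.3 BPKM in pcDNA3) were among the 5 that were higher.

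**Figure D4:**
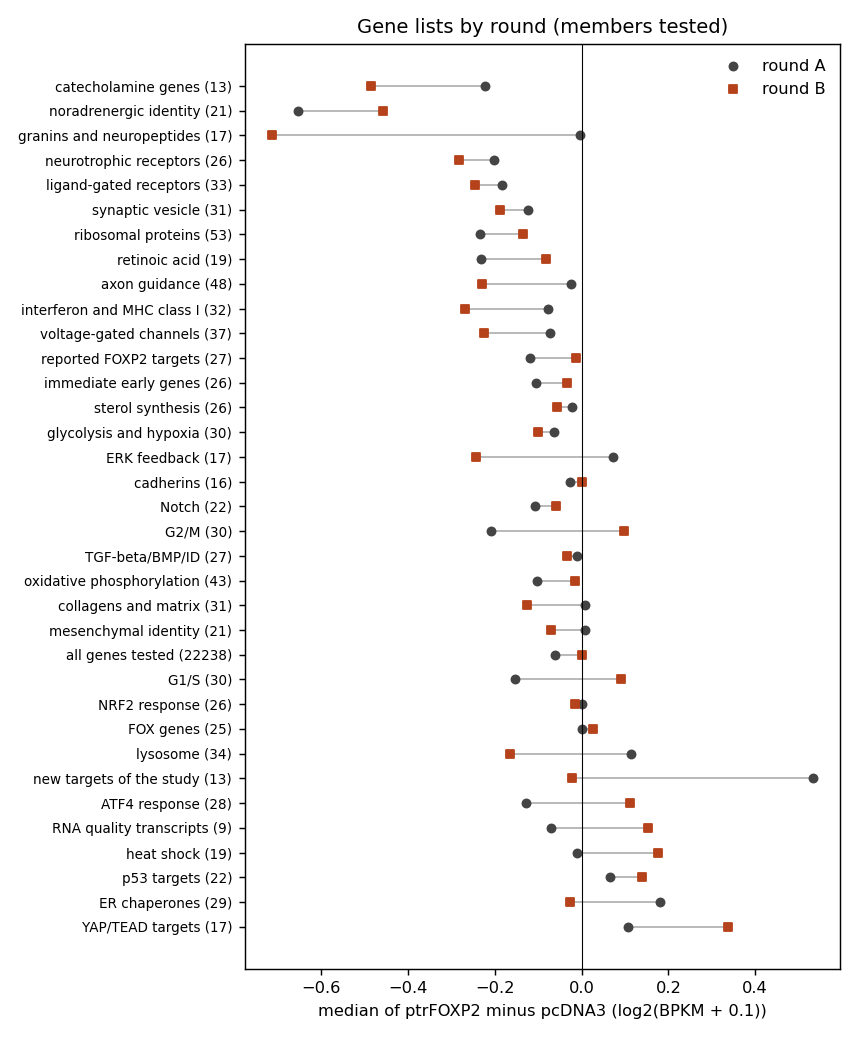
Median log2 difference of ptrFOXP2 minus pcDNA3 over the members of a gene list (horizontal axis) in round A (grey circles) and round B (red squares), with the number of members tested in parentheses. Noradrenergic identity lies at -0.65 and -0.46, catecholamine genes lie below 0 in both rounds, and YAP/TEAD targets lie above 0 in both.

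The remaining genes with the smallest p among those lower in ptrFOXP2 had varied functions. DCN, decorin, a small proteoglycan of the matrix, had 2.20 and 1.72 BPKM in ptrFOXP2, against 5.11 and 6.54 BPKM in pcDNA3 (log2 difference -1.52 ± 0.18 SE, limma adjusted p = 0.168). This was the smallest adjusted p among the 13412 genes averaging 1 BPKM or more. MCF2L, an exchange factor of small GTPases, had 0.33 and 0.337 BPKM in ptrFOXP2, against 1.06 and 0.966 BPKM in pcDNA3 (log2 difference -1.36 ± 0.23 SE, limma adjusted p = 0.577). NT5M, a mitochondrial nucleotidase, had 0.841 and 0.624 BPKM in ptrFOXP2, against 1.72 and 1.55 BPKM in pcDNA3. In these genes the replicates of each group lay close together. They were picked among genes whose groups did not overlap, so the separation of the groups follows from that choice.

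The G protein gamma subunits GNG8 (0.216 and 0.285 BPKM in ptrFOXP2, 1.76 and 1.13 BPKM in pcDNA3) and GNG4 (0.714 and 0.483 BPKM in ptrFOXP2, 2.44 and 1.23 BPKM in pcDNA3) were both lower. FXYD6-FXYD2, a readthrough transcript over neighbouring regulators of the sodium pump, had a log2 difference of -1.77 ± 0.37 SE, and its reads may be shared with FXYD6. BEGAIN and RTL1 lie near the imprinted gene DLK1. BEGAIN had 1.66 and 2.16 BPKM in ptrFOXP2, against 4.44 and 4.13 BPKM in pcDNA3, and RTL1 had 0.314 and 0.228 BPKM in ptrFOXP2, against 1.32 and 0.799 BPKM in pcDNA3. DLK1 itself, a Notch-related ligand, had 0.313 and 0.171 BPKM in ptrFOXP2, against 2.69 and 0.698 BPKM in pcDNA3. FNDC4, a fibronectin type III domain protein, had 4.95 and 3.40 BPKM in ptrFOXP2, against 6.76 and 7.96 BPKM in pcDNA3.

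Among genes with the smallest p that were higher in ptrFOXP2, metabolic, chaperone and matrix genes stood side by side. HSPB8, a small heat shock protein that acts in chaperone-assisted autophagy, had 5.75 and 5.86 BPKM in ptrFOXP2, against 3.43 and 3.28 BPKM in pcDNA3 (log2 difference 0.77 ± 0.16 SE, limma adjusted p = 0.792). SOD3, the extracellular superoxide dismutase, had 5.96 and 10.6 BPKM in ptrFOXP2, against 1.53 and 2.09 BPKM in pcDNA3 (log2 difference 2.09 ± 0.56 SE, limma adjusted p = 0.94). EFEMP1, a fibulin of the extracellular matrix, had 9.41 and 25.5 BPKM in ptrFOXP2, against 5.35 and 6.92 BPKM in pcDNA3. These genes were picked among those with both ptrFOXP2 libraries above both pcDNA3 libraries, and HSPB8 was the most even of them. RCAN1, an inhibitor of calcineurin, had 10.0 and 12.7 BPKM in ptrFOXP2, against 7.14 and 4.74 BPKM in pcDNA3. PDLIM5, an adaptor at the actin cytoskeleton, had 15.4 and 15.1 BPKM in ptrFOXP2, against 11.9 and 8.65 BPKM in pcDNA3. SCD5, a stearoyl-CoA desaturase, VEPH1, LRRFIP1 and C21orf7, picked by the same rule, had log2 differences of 0.37, 0.64, 0.40 and 0.76.

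Short noncoding entries were also among the genes with the smallest p. MIR4258 had 1.00 and 1.77 BPKM in ptrFOXP2, against 0.5 and 0.232 BPKM in pcDNA3, and its hairpin lies inside CKS1B on the same strand, so that reads of CKS1B cannot be told from its own. CKS1B had 44.6 and 30.6 BPKM in ptrFOXP2, against 50.1 and 30.9 BPKM in pcDNA3. SNORA11, a small nucleolar RNA, had 1.09 and 1.20 BPKM in ptrFOXP2, against 0.698 and 0.671 BPKM in pcDNA3.

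Targets of the coactivators YAP and TAZ with TEAD, which report on cell adhesion and tension, were mostly positive. Of 17 tested, 15 had a positive log2 difference, 6 were non-overlapping higher, against 8.43% of all genes, and 1 was non-overlapping lower. With median-ratio scaling 9 were non-overlapping higher, against 13.4% of all genes. The median was 0.17 (0.11 in round A and 0.34 in round B), with 0.31 without ptrFOXP2 A, 0.094 without ptrFOXP2 B and 0.065 without pcDNA3 B, and 0 passed the adjusted limma test or had an unadjusted p under 0.05. CTGF, a matricellular protein, had 40.5 and 25.1 BPKM in ptrFOXP2, against 15.4 and 9.83 BPKM in pcDNA3 (log2 difference 1.37 ± 0.76 SE, limma adjusted p = 1). CYR61, its close relative, had 158 and 175 BPKM in ptrFOXP2, against 109 and 110 BPKM in pcDNA3. Between 11 and 15 members were positive when any 1 of the 10 libraries was left out.

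Markers of other cell types moved with the groups in part, and their part in the differences above was not tested. Of 6 fibroblast markers, 6 were negative and 5 non-overlapping lower, against 17.5% of all genes (median -0.71, and -0.25 without pcDNA3 B), and their summed level was 102.5 to 107.1 BPKM in ptrFOXP2 and 133 to 214 BPKM in pcDNA3. LUM, the proteoglycan lumican, had 26.1 and 25.3 BPKM in ptrFOXP2, against 32.4 and 64.0 BPKM in pcDNA3. Schwann cell markers summed to 2.68 to 2.82 BPKM in ptrFOXP2, with SOX10 listed at 0 in both libraries, and to 3.51 to 4.55 BPKM in pcDNA3. Blood markers did not exceed a sum of 0.29 BPKM in ptrFOXP2 and 0.029 BPKM in pcDNA3, and endothelial markers summed to at most 0.0216 BPKM in ptrFOXP2 and 0.0579 BPKM in pcDNA3. Epithelial markers summed to 204 to 319 BPKM in ptrFOXP2 and 163 to 216 BPKM in pcDNA3, nearly all of it from KRT18 and KRT8. Mesenchymal identity genes had a median difference of -0.05. Of 21 tested, 1 was non-overlapping higher (4.76%, against 8.43% of all genes) and 3 non-overlapping lower (14.3%, against 17.5%), so neither share exceeded that of all genes. The higher one was CD44 (218 and 216 BPKM in ptrFOXP2, 174 and 167 BPKM in pcDNA3). The lower ones included TWIST1 (40.7 and 51.3 BPKM in ptrFOXP2, 57.9 and 60.9 BPKM in pcDNA3).

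In collagens and other matrix genes, 9 of 31 were non-overlapping lower, against 17.5% of all genes, and 4 non-overlapping higher, against 8.43%. COL6A3, a chain of collagen VI, had 7.92 and 4.28 BPKM in ptrFOXP2, against 17.2 and 18.7 BPKM in pcDNA3 (log2 difference -1.61 ± 0.44 SE, limma adjusted p = 0.97), whereas COL6A1 and COL6A2 overlapped between the groups. Ribosomal protein genes were negative in 53 of 53, by a small amount (median -0.18), and 11 were non-overlapping lower (20.8%, against 17.5% of all genes). Without pcDNA3 A, 36 of 53 were negative and the median was -0.03; without ptrFOXP2 B, 44 were negative and the median was -0.09. Among them RPL13 had 41.2 and 37.1 BPKM in ptrFOXP2, against 50.2 and 42.8 BPKM in pcDNA3.

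Cell cycle lists did not separate the groups. Medians were -0.02 for 30 G1/S genes and -0.06 for 30 G2/M genes, and both lists were below 0 in round A (-0.15 and -0.21) and above 0 in round B (0.09 and 0.10). ER chaperones were positive in 24 of 29 with 6 non-overlapping higher, and p53 targets in 16 of 22 with 4 non-overlapping higher, against 8.43% of all genes, at medians of 0.09 and 0.08. With 1 library left out these medians were 0.02 to 0.16, the lowest without ptrFOXP2 A, and -0.13 to 0.25, the lowest without pcDNA3 B. Interferon and MHC class I genes were negative in 25 of 32, with 9 non-overlapping lower, against 17.5% of all genes, 2 non-overlapping higher, against 8.43%, and a median of -0.14. The median was -0.31 without pcDNA3 A and -0.0076 without pcDNA3 B. BST2, an interferon-induced membrane protein that tethers viruses, had 0.499 and 0.303 BPKM in ptrFOXP2, against 0.671 and 1.20 BPKM in pcDNA3. The housekeeping gene GAPDH had 1098 and 840 BPKM in ptrFOXP2, against 1137 and 882 BPKM in pcDNA3, and RPLP0 had 282 and 245 BPKM in ptrFOXP2, against 355 and 271 BPKM in pcDNA3, so both overlapped.

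Genes linked with FOXP2 by earlier studies, as a list of 27, were negative in 21 and non-overlapping lower in 9, against 17.5% of all genes, with a median of -0.11. With median-ratio scaling 6 were non-overlapping lower (22.2%, against 13.8% of all genes), and without pcDNA3 A the median was -0.05. DCX, doublecortin, a microtubule protein of migrating neurons, had 0.165 and 0.0697 BPKM in ptrFOXP2, against 0.681 and 0.376 BPKM in pcDNA3 (log2 difference -1.52 ± 0.47 SE, limma adjusted p = 1). MAPK8IP2, a scaffold of JNK signalling, had 2.02 and 1.80 BPKM in ptrFOXP2, against 2.86 and 2.81 BPKM in pcDNA3. The 13 genes that the study introduced as new targets were chosen on these libraries for a level that set hsaFOXP2 apart. They are therefore not independent evidence. In ptrFOXP2, 4 were non-overlapping higher (30.8%, against 8.43% of all genes) and 2 non-overlapping lower (15.4%, against 17.5%). MSN, moesin, a linker of membrane and actin, had 82.7 and 75.0 BPKM in ptrFOXP2, against 57.1 and 44.1 BPKM in pcDNA3. BACE2, an aspartyl protease related to beta-secretase, had 5.75 and 5.79 BPKM in ptrFOXP2, against 3.16 and 2.44 BPKM in pcDNA3. FOXL1, another forkhead factor, had 1.31 and 1.21 BPKM in ptrFOXP2, against 0.596 and 0.424 BPKM in pcDNA3. In these genes the replicates of ptrFOXP2 were nearly equal and stood above both controls. PTPRQ, a receptor phosphatase, was lower, with 0.033 and 0.0243 BPKM in ptrFOXP2, against 0.103 and 0.0707 BPKM in pcDNA3.

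The same controls served for the other FOXP2 cDNAs, and each comparison has its own values from the same fit. The noradrenergic list had medians of -0.56 for ptrFOXP2, -0.02 for hsaFOXP2, -0.33 for mmuFOXP2 and 0.03 for cjaFOXP2, each minus pcDNA3. For catecholamine genes these medians were -0.74, -0.40, -0.02 and -0.14. Yet DDC differed from pcDNA3 by -1.67 in hsaFOXP2, -2.27 in mmuFOXP2 and -2.71 in cjaFOXP2, and SLC6A2 by -1.40, -2.47 and -3.04. For ptrFOXP2 minus the other FOXP2 conditions, the catecholamine median was 0.06, with 8 of 13 members positive and 5 negative. CHGA differed from pcDNA3 by -3.16 in ptrFOXP2, -1.85 in hsaFOXP2, -4.03 in mmuFOXP2 and -3.90 in cjaFOXP2 on the log2 scale. It had 0.236 to 3.24 BPKM in the 6 other FOXP2 libraries, so both ptrFOXP2 libraries lay within their range. The same held for DBH, which had 0.396 to 2.33 BPKM there. UNC5A, SCG3, CPLX2, ALK, DCX and GRIN1 were lower than pcDNA3 in each other FOXP2 condition, so their lower level was not particular to ptrFOXP2. Their differences between ptrFOXP2 and the other FOXP2 conditions were -0.26, -0.10, -0.05, -0.26, 0.03 and 0.10. RET was lower in mmuFOXP2 (-2.13) and cjaFOXP2 (-2.79) but not in hsaFOXP2 (0.06), and KCNH2 was higher in hsaFOXP2 (0.73).

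Against the 6 other FOXP2 libraries as a group, a comparison that does not use the controls, 1 gene was called higher (0.0045%) and 0 lower by limma, and 651 higher (2.93%) and 1000 lower (4.5%) had an unadjusted p under 0.05. The gene called was again MIR199B, from the same pair of values above 0, and with the replicate block 0 genes were called. Both ptrFOXP2 libraries lay above all 6 others in 600 genes (2.7%) and below all 6 in 935 genes (4.2%), while 53.1% of all genes had a negative and 46.9% a positive difference. FOXP2 itself averaged 11.9 ± 13.9 BPKM in ptrFOXP2 and 11.6 ± 11.6 BPKM in the 6 others (SD, n = 2 and n = 6, exact two-sided permutation p = 0.857), where it ranged from 0.932 to 30.2 BPKM.

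**Figure D5:**
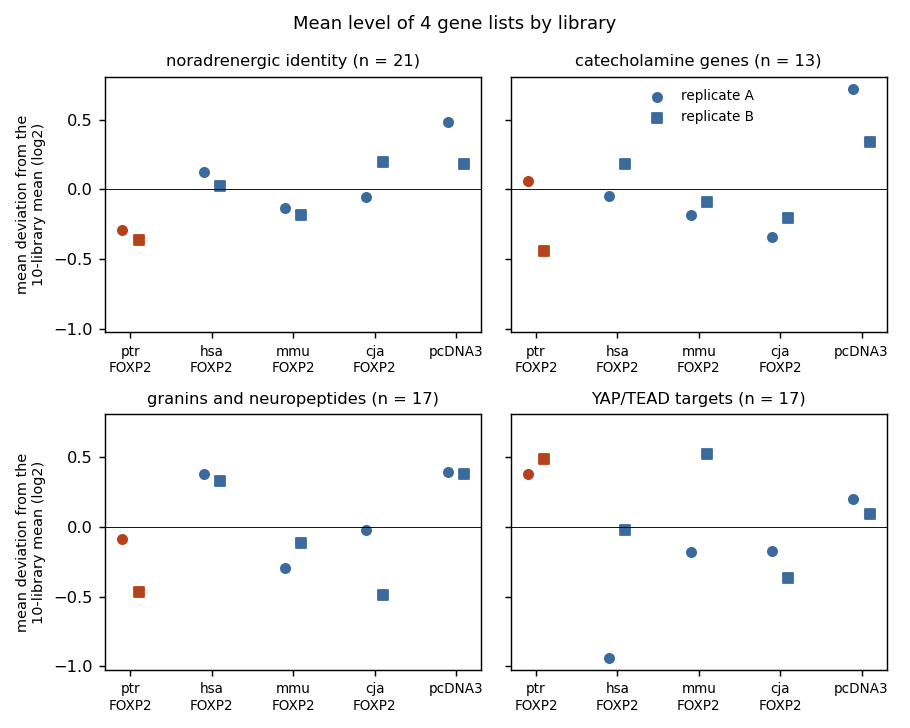
Mean deviation of the members of 4 gene lists from their 10-library mean (log2(BPKM + 0.1), vertical axis) in each library of the 5 conditions, with ptrFOXP2 in red, circles for replicate A and squares for replicate B. In the noradrenergic list the ptrFOXP2 libraries are lowest, at -0.29 and -0.36, and pcDNA3 A is highest, at 0.49.

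Noradrenergic factors were lower in ptrFOXP2 than in the other FOXP2 cells to a lesser degree (median -0.28). Of 21, 19 were negative, against 53.1% of all genes. Below all 6 libraries lay 3 of 21, against 4.2% of all genes: PHOX2A, the neural factor SOX11, and KLF7. PHOX2A had 18.6 and 11.4 BPKM in ptrFOXP2, against 19.3 to 101 BPKM in the others. SOX11 had 9.83 and 9.40 BPKM in ptrFOXP2, against 11.4 to 19.1 BPKM in the others. Interferon and MHC class I genes had 9 of 32 below all 6 libraries, against 4.2% of all genes, with a median of -0.28. Among them were HLA-C (13.3 and 14 BPKM in ptrFOXP2, 14.8 to 22.4 BPKM in the others) and IRF7, a factor of the interferon response (2.46 and 2.65 BPKM in ptrFOXP2, 2.71 to 4.58 BPKM in the others). None of these passed the adjusted test.

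The genes with the smallest p in this comparison included MSN, at 82.7 and 75.0 BPKM in ptrFOXP2, against 1.68 to 72.6 BPKM in the others (log2 difference 1.94, limma adjusted p = 0.354). In MSN the 2 hsaFOXP2 libraries, at 2.80 and 1.68 BPKM, lay far below the rest. LRRFIP1, which binds the LRR domain of FLII, had 21.4 and 26.3 BPKM in ptrFOXP2, against 12.7 to 19.6 BPKM in the others (log2 difference 0.64, limma adjusted p = 0.43). APBB2, an adaptor of the amyloid precursor protein, had 9.84 and 9.51 BPKM in ptrFOXP2, against 6.05 to 8.54 BPKM in the others. SH2D5, C21orf7 and the small nucleolar RNA SNORD29 had log2 differences of 1.14, 1.54 and 0.77, without passing the test. On the lower side, IFI30, the lysosomal thiol reductase of antigen processing, had 8.69 and 6.16 BPKM in ptrFOXP2, against 9.07 to 24.3 BPKM in the others (log2 difference -1.03, limma adjusted p = 0.37). DCN, lower than in pcDNA3 as well, had 2.20 and 1.72 BPKM in ptrFOXP2, against 2.99 to 5.06 BPKM in the others. MFSD6 had 6.26 and 6.21 BPKM in ptrFOXP2, against 7.30 to 14.3 BPKM in the others, and KIAA1161, MIR3918 and MIR4758 had log2 differences of -0.82, -0.81 and -0.74. All of these genes were picked among those with both ptrFOXP2 libraries outside the range of the 6 others, so that separation is no further result.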

How the data were processed

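Polyadenylated RNA of 10 SH-SY5Y libraries was sequenced, and the authors aligned reads to hg19 with STAR (no version is stated), counted them over UCSC transcripts and deposited RPKM values computed on bases (BPKM). The table holds 80922 transcripts under 27992 symbols. 2 transcripts of unknown symbol (0.00247%) were left out. From these, means over the transcripts of a symbol were computed. The number of reads behind a value is unknown, and intervals for counting error were left out.

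Genes above 0 in at least 2 libraries were tested with limma 3.58.1 (R 4.3.3) on log2(BPKM + 0.1), with 5 groups over 10 libraries, trend and robust moderation and Benjamini-Hochberg adjustment. The pseudocount understates differences of low genes. FOXP2 was compared by exact permutation (scipy 1.17.1). Named are FOXP2, up to 12 genes per direction with the smallest p among non-overlapping genes of at least 1 BPKM (6 per direction against the other FOXP2 libraries), up to 4 members of each of 39 gene lists, 2 reference genes, and others named from their values, such as DLK1, CYR61, LUM and further list members. Members and lists were chosen with earlier results of these data known. The study made its biological replicates by separate transfections, and the replicate letters were taken as rounds of transfection. A fit with the replicate block was therefore run. A minus B differences of ptrFOXP2 and pcDNA3 correlated at 0.267, and 5 of 10 pairs of conditions exceeded 0.1. The pairs with cjaFOXP2 were all negative, from -0.194 with hsaFOXP2 to -0.0403 with ptrFOXP2. Whether a letter marks the same round in every condition was not tested. A search of RefSeq promoters for the forkhead motif TGTTTAC on both strands is void, since 12240 of 22238 genes had a promoter entry. Some genes that the rule picks are not reported here. Steps were tested on simulated data. Python 3.11.15, numpy 2.4.6, pandas 2.3.3 and matplotlib 3.10.9 were used.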

Additional observations from a re-analysis of the deposited data

Results flagged for a closer look

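MIR199B was singled out because its difference from pcDNA3 in ptrFOXP2 passed a limma test against that in the other FOXP2 conditions (1.02 on the log2(BPKM + 0.1) scale). It was at 0.0918 and 0.113 BPKM in ptrFOXP2 and listed at 0 in the 8 other libraries. It therefore passed the filter on low values only through ptrFOXP2, its size depends on the pseudocount, and the test gives no support for a difference. Groups of 2 libraries were too small for a search for single outlying libraries.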

How the results depend on the processing

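Alternatives were another pseudocount (1 or 0.5), no filter, genes averaging 1 BPKM or more, median-ratio scaling, sums over transcripts, the replicate block, limma with neither trend nor robust moderation, the 4 libraries alone, and leaving out each library. Counts of list members by direction under these settings, and of non-overlapping members under median-ratio scaling, were chosen after seeing the data. Against pcDNA3, 0 genes were called higher with a pseudocount of 1 or 0.5, and 0 higher and 0 lower among genes averaging 1 BPKM or more, with sums over transcripts, with the replicate block, with neither trend nor robust moderation and with the 4 libraries alone. Leaving out 1 library gave 0 to 2 genes higher and 0 to 2 lower. Against the other FOXP2 libraries, 0 were called higher among genes averaging 1 BPKM or more, with sums, with the replicate block and with neither trend nor robust moderation, and leaving out 1 library gave 0 to 8 higher and 0 to 1 lower, the most without ptrFOXP2 A. With the replicate block, that is with libraries paired by round, only the calls of MIR199B and DQ591726 changed. Libraries did not overlap in 2969 genes higher and 3072 lower in ptrFOXP2 with median-ratio scaling, and in 1021 higher and 2077 lower among genes averaging 1 BPKM or more. As a sum over transcripts, FOXP2 averaged 167 BPKM in ptrFOXP2 and 0.0315 BPKM in pcDNA3. With 1 library left out, log2 differences from pcDNA3 changed sign for CKS1B (-0.44 to 0.25), COL6A1 (-0.47 to 0.083), COL6A2 (-0.44 to 0.043), GAPDH (-0.25 to 0.13), ISL1 (-0.39 to 0.23), SCG2 (-1.04 to 0.10) and TFAP2A (-0.035 to 0.17). The cause was not tested. With 2 libraries a group, and 1 where a library was left out, the spread is borrowed from the other conditions, and read depth per value is unknown.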
